A study of Drosophila melanogaster with 8 samples.

Results

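The small GTPase gene Ras85D and 7 further genes of the core Ras to MAP kinase cascade were followed across 8 RNA-seq libraries of Drosophila melanogaster imaginal discs, the larval epithelial sheets that form adult structures. The members, taken by FlyBase symbol, were Ras85D, drk, Sos, csw, Raf, ksr, Dsor1 and rl, 8 of 15348 genes in the table, and all 8 passed the minimum of 1 CPM (counts scaled to a common library size) in at least 1 library that 10029 genes passed. No table used here holds their protein or promoter sequences, so none is shown.

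Each group had 1 library, made from discs pooled from 50 to 60 wandering larvae raised at 25 °C. The 7 eye-antennal libraries share eyflp on a y, w chromosome, the pair act>y+>Gal4 and UAS-GFP, and a chromosome with FRT82, e and tub-GAL80 opposite one with FRT82. In such discs FLP recombinase, made in the eye, creates clones that lose the Gal80 repressor, so that Gal4 can drive GFP and any UAS transgene there. A library therefore mixes clone cells with the other cells of the disc. RasV12 carried UAS-Ras[V12], an always-active form of Ras85D, and was labelled 5 days after egg laying. RasV12 scrib carried UAS-Ras[V12] and, with e, the scrib[2] allele of the polarity gene scribble, and was taken at 7 days (called the early tumour here) and at 11 days (the late tumour). RasV12 scrib BskDN added UAS-Bsk[DN], a dominant-negative form of the Jun N-terminal kinase (JNK) Basket, at 6 days. The scrib BskDN library had scrib[2] and UAS-Bsk[DN] without Ras, at 6 days, and BskDN had UAS-Bsk[DN] alone, at 11 days. The library labelled scrib wing discs came from scrib[2]/scrib[1] larvae with no FLP or transgene listed, at 6 days, although the dissection text for it names eye-antennal discs. Control clones had neither UAS-Ras[V12] nor UAS-Bsk[DN] and no scrib allele, at 5 days.

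The cascade carries the signal of receptor tyrosine kinases to the nucleus. The adaptor Drk (the fly Grb2) brings the exchange factor Son of sevenless (Sos) to an active receptor, and Sos loads Ras85D with GTP. Ras85D then acts through the kinase Raf, the MAP kinase kinase Dsor1 (MEK) and the MAP kinase Rolled (rl, ERK), while the scaffold Kinase suppressor of ras (ksr) holds these kinases together and the phosphatase Corkscrew (csw, SHP2) helps receptors signal. In the eye disc the pathway is known for its part in photoreceptor recruitment, cell survival and growth.

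Between 17152279 and 21027972 counts were assigned to genes per library. Levels are CPM scaled by the trimmed mean of M values, intervals are exact 95% intervals of counting error, and no p-value is given, since 1 library per group leaves no spread between replicates. The library labelled scrib wing discs had low eye disc markers, 174 CPM summed over 6 genes against 565 to 1200 CPM in the 7 eye-antennal libraries, but no high wing disc markers. Of the 3 measured, vg was at 2.18 CPM there and at 1.45 to 3.87 CPM in the other 7, nub at 3.63 CPM, within the range of those 7, and bi at 39.8 CPM against 68.0 to 129 CPM. It enters the levels, spans and orders of levels below and none of the 10 comparisons. Tissue that is not disc epithelium differed between libraries too. The 7 muscle markers summed to 791 to 1813 CPM in the 7 libraries other than control and to 5381 CPM in control. Sums of the 7 hemocyte markers ran from 387 CPM in RasV12 to 2069 CPM in control, and those of the 6 fat body markers from 31.5 CPM in the early tumour to 5260 CPM in BskDN. The 6 salivary gland markers summed to 1392 CPM in RasV12 and 43.2 CPM in control. Their sum was 857 CPM in scrib BskDN, 11.0 CPM in RasV12 scrib BskDN and lowest in the early tumour, at 9.86 CPM. No marker of these lists was at 0. The part of such tissue in the differences below was not tested. In mixed tissue, more cells that carry a transcript and more transcript per cell cannot be told apart.

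Ras85D (FBgn0003205, 3R:9510561-9513067, minus strand in the BDGP6 annotation) was the member with the widest span. It was at 464 CPM in RasV12 (455 to 474), 655 CPM in the early tumour (645 to 666), 1181 CPM in the late tumour (1166 to 1196) and 426 CPM in RasV12 scrib BskDN (417 to 435). Without the transgene it was at 252 CPM in scrib BskDN (246 to 259), 272 CPM in BskDN, 284 CPM in the scrib wing library and 253 CPM in control (246 to 261). Every library with UAS-Ras[V12] was above every library without it, and the intervals of the 2 sets did not overlap. Counts of this gene hold reads of the transgene as well as of the resident gene, so the label is checked but the output of the resident gene is not measured. Within the order of the 8 libraries, the 1 neighbouring pair whose ratio interval held 1 was control and scrib BskDN (1.00, 0.965 to 1.04).

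**Figure D1:**
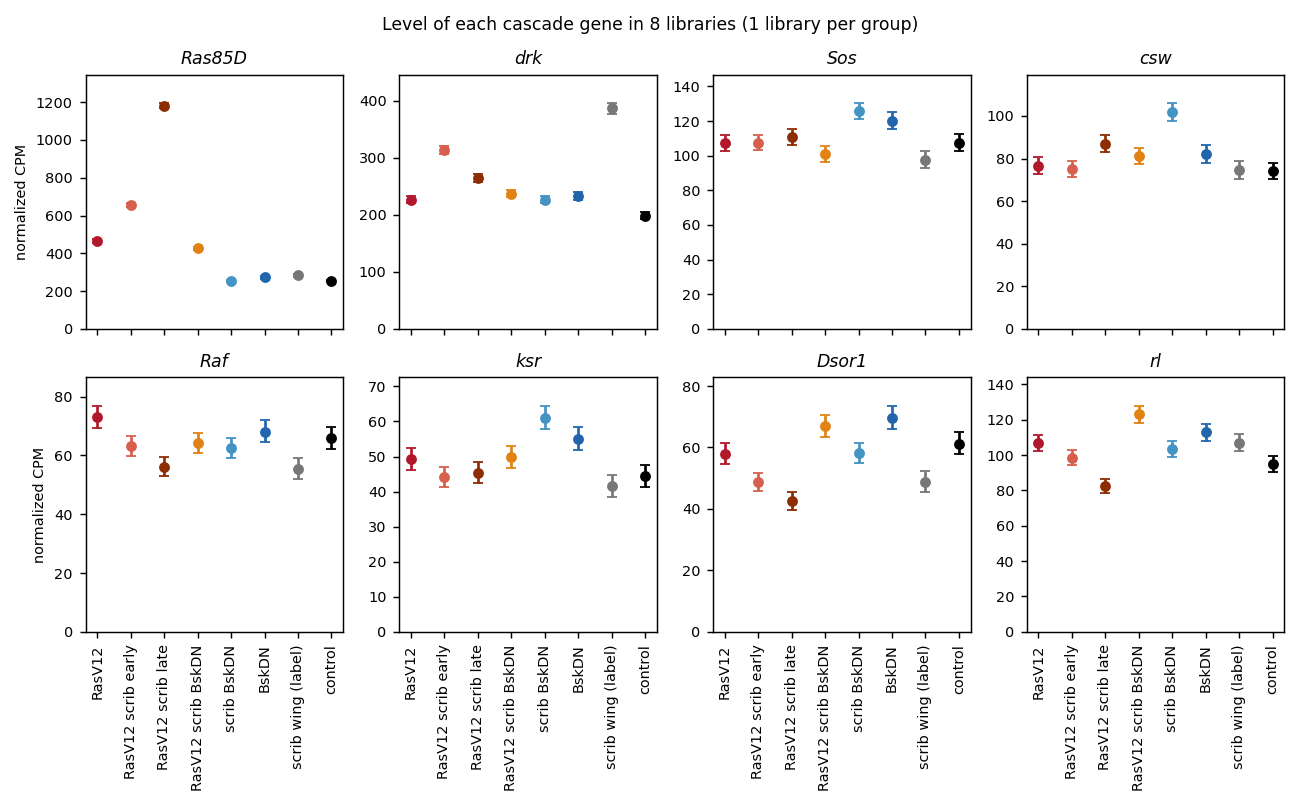
Normalized CPM of each of the 8 cascade genes (vertical axes, each from 0) in the 8 libraries (horizontal axes), with exact 95% Poisson intervals of counting error as bars. Ras85D lies between 426 and 1181 CPM in the 4 libraries with RasV12 and between 252 and 284 CPM in the other 4, while Sos stays between 97.6 and 126 CPM in all 8.

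The libraries without the transgene give a baseline of 252 to 284 CPM, a ratio of 1.13 between the highest and the lowest, or 252 to 272 CPM without the scrib wing library. Of 5855 genes with a mean of at least 20 CPM, 93.8% had a wider span over these 4 libraries, and the median span was 1.45. The amount above that baseline was 180 to 212 CPM in RasV12, 371 to 403 CPM in the early tumour, 897 to 929 CPM in the late tumour and 142 to 174 CPM in RasV12 scrib BskDN. It made up 76.0 to 78.6% of the Ras85D counts in the late tumour and 33.4 to 40.8% in RasV12 scrib BskDN. The amount above baseline was 2.30 to 2.42 times as high in the late as in the early tumour, and 1.90 to 2.06 times as high in the early tumour as in RasV12. These bounds use the lowest and highest library without the transgene and take the resident gene to be within that range, which the counts cannot show.

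The genes next to Ras85D varied less. Rlb1, which starts 259 bases beyond it on the opposite strand, was at 25.0 CPM in RasV12, 25.9 CPM in the early tumour, 28.2 CPM in the late tumour and 21.5 CPM in RasV12 scrib BskDN, against 18.0 to 23.4 CPM in the 4 libraries without RasV12, so it too was highest in the late tumour. CG8149, which ends 4695 bases on the other side, was between 66.5 and 84.5 CPM in all 8 libraries, and lowest in the late tumour. No exon of another annotated gene overlapped an exon of Ras85D.

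The other gene carried by a transgene had its own order. bsk, the Basket gene, reached 1891 CPM in RasV12 scrib BskDN, 1607 CPM in scrib BskDN discs and 749 CPM in BskDN, against 92.4 to 109 CPM in the 5 libraries without UAS-Bsk[DN]. Libraries with this transgene thus lay 7.57- to 19.1-fold over control, while those with UAS-Ras[V12] lay 1.68- to 4.66-fold over control in Ras85D. The Ras85D baseline was higher, so the 2 sets of folds do not compare transgene output. Both genes were high in 1 library, RasV12 scrib BskDN, which had the highest bsk and the lowest Ras85D of the libraries with RasV12.

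**Figure D2:**
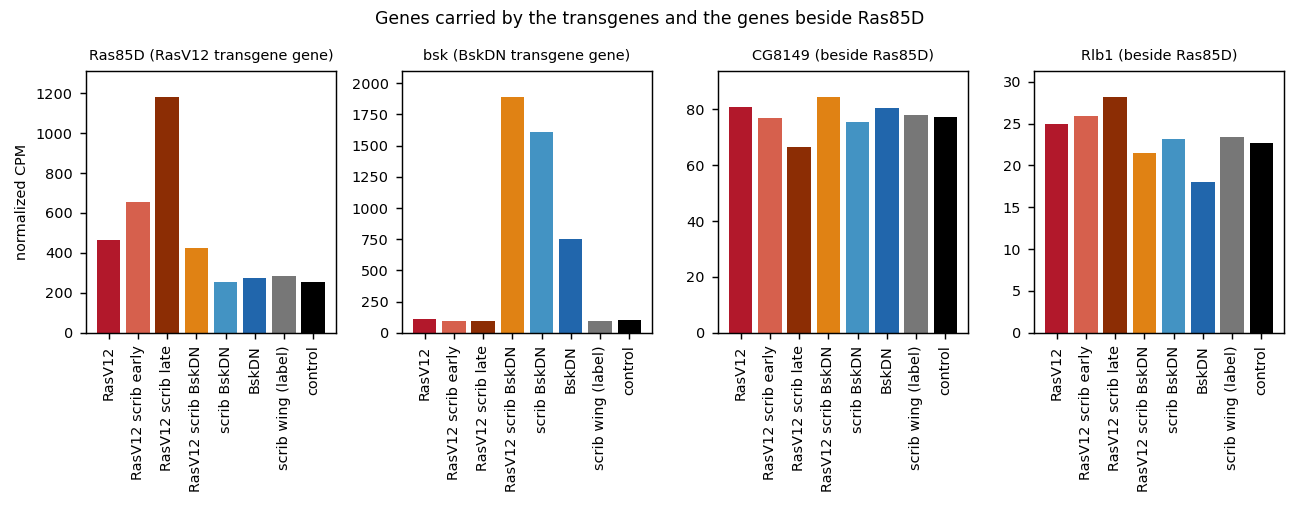
Normalized CPM (bars, from 0) of Ras85D, bsk and the 2 genes that flank Ras85D, in 8 libraries. Ras85D is high in the 4 libraries with UAS-Ras[V12] and bsk in the 3 with UAS-Bsk[DN], while CG8149 stays between 66.5 and 84.5 CPM.

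The 5 genes whose centred log2 CPM profile over the 8 libraries was closest to that of Ras85D, among 5540 named genes with a mean of at least 20 CPM, were Alr, CG7506, CG10802, Mkp3 and RNaseZ. Their root mean square differences from it were 0.23, 0.26, 0.28, 0.31 and 0.32 on the log2 scale, against a median of 0.79 over all candidates. Alr was at 15.2 CPM in RasV12, 25.1 CPM in the early tumour, 55.6 CPM in the late tumour and 17.2 CPM in RasV12 scrib BskDN, against 12.7 to 13.9 CPM in the libraries without RasV12. Mkp3, the dual-specificity phosphatase that acts on ERK, was at 129 CPM in the early and 180 CPM in the late tumour, against 46.9 CPM in control. All 5 were highest in the late tumour, and the profiles share the same 8 libraries.

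**Figure D3:**
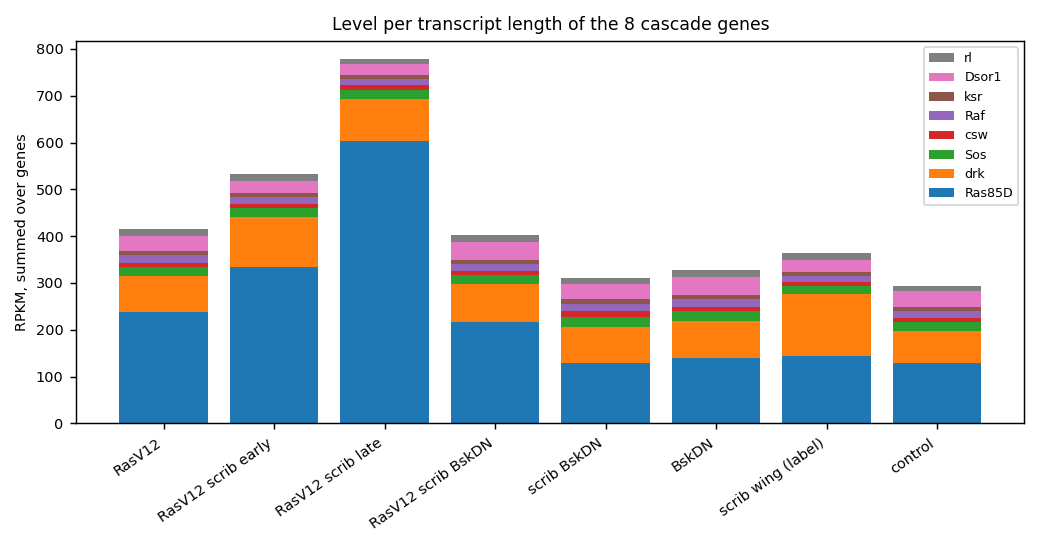
Level per exon length (RPKM, stacked bars from 0) of the 8 cascade genes in each library. Ras85D takes the largest part of each bar, 77.5% of the sum in the late tumour and 43.9% in control, and the other 7 genes together stay between 165 and 219 RPKM.

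Per length, Ras85D was the most abundant member in every library. Levels per kilobase of annotated exon (RPKM) in control were 129 for Ras85D, 67.3 for drk, 34.1 for Dsor1, 19.1 for Sos, 15.5 for Raf, 12.5 for rl, 8.48 for csw and 8.05 for ksr. Ras85D made up 57.3% of the summed RPKM of the 8 genes in RasV12, 62.9% in the early and 77.5% in the late tumour, and 54.0% in RasV12 scrib BskDN, against 39.8 to 43.9% in the 4 libraries without the transgene. The sum of the other 7 genes was between 165 and 219 RPKM in all libraries. The RPKM ratio of Ras85D to Raf, its direct effector kinase, was 45.6 in the late tumour, 22.5 in the early tumour, 14.4 in RasV12 scrib BskDN and 13.8 in RasV12. Without the transgene it was 8.34 in control, 8.66 in BskDN, 8.75 in scrib BskDN and 11.1 in the scrib wing library. These are ratios of RNA and say nothing of protein.

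Upstream of Ras85D, drk (FBgn0004638, 2R:13495222-13502841) had the widest span of the other 7 members over the 8 libraries, which the scrib wing library set. It was at 227 CPM in RasV12, 314 CPM in the early tumour, 264 CPM in the late tumour and 237 CPM in RasV12 scrib BskDN. It was at 227 CPM in scrib BskDN, 233 CPM in BskDN, 387 CPM in the scrib wing library (377 to 396) and 198 CPM in control (192 to 205). Control was lowest and the scrib wing library highest, followed by both tumours, while between these, RasV12, scrib BskDN, BskDN and RasV12 scrib BskDN did not differ from one to the next beyond counting error. In the early tumour drk was 1.58-fold over control (1.52 to 1.65), the only member other than Ras85D past 1.5-fold in any of the 10 comparisons.

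Part of drk cannot be counted alone. Its exons share 578 bases, 19.6% of their length, with exons of mars on the opposite strand, and no source used here states the strand setting of the counting. The mars gene was at 110 CPM in the early tumour, against 57.6 to 82.2 CPM elsewhere, so it was highest in the eye-antennal library where drk was highest. Reads that fell in several genes were tallied apart, and the effect of the shared bases on the drk counts was not tested.

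Sos (FBgn0001965, 2L:13813816-13819824) was among the steadiest genes. It was at 107 CPM in RasV12, 108 CPM in the early tumour, 111 CPM in the late tumour and 101 CPM in RasV12 scrib BskDN, against 126 CPM in scrib BskDN, 120 CPM in BskDN, 97.6 CPM in the scrib wing library and 107 CPM in control. All of these lay within a ratio of 1.29, and 89.4% of the genes with a mean of at least 20 CPM had a wider span. The interval held 1 for every neighbouring pair in its order but BskDN and the late tumour. Over the exchange factor, its adaptor was in excess per length: the RPKM ratio of drk to Sos was 5.58 in the early tumour and 4.56 in the late tumour, against 3.53 in control, and 7.58 in the scrib wing library.

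The phosphatase gene csw (FBgn0000382, X:2094234-2115701) was highest in scrib BskDN. It was at 76.7 CPM in RasV12, 75.1 CPM in the early tumour, 87.0 CPM in the late tumour and 81.2 CPM in RasV12 scrib BskDN, against 102 CPM in scrib BskDN, 82.1 CPM in BskDN, 74.5 CPM in the scrib wing library and 74.1 CPM in control. Each neighbouring pair in its order had a ratio interval that held 1, except scrib BskDN over the late tumour (1.17, 1.10 to 1.25).

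The scaffold gene ksr (FBgn0015402, 3R:5478390-5483906) was highest in the same library. It was at 49.2 CPM in RasV12, 44.0 CPM in the early tumour, 45.4 CPM in the late tumour and 49.8 CPM in RasV12 scrib BskDN, against 61.1 CPM in scrib BskDN, 55.1 CPM in BskDN, 41.5 CPM in the scrib wing library and 44.4 CPM in control. The 6 lower libraries did not differ from one to the next beyond counting error. Its exons share 841 bases, 15.2% of their length, with Hcs on the opposite strand, and Hcs was also highest in scrib BskDN, at 51.2 CPM, and second in BskDN, at 45.7 CPM. The effect of these shared bases on the ksr counts was not tested either.

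Raf (FBgn0003079, X:2295466-2343870), the first kinase of the cascade, was at 73.1 CPM in RasV12, 63.3 CPM in the early tumour, 56.2 CPM in the late tumour and 64.2 CPM in RasV12 scrib BskDN, against 62.5 CPM in scrib BskDN, 68.1 CPM in BskDN, 55.6 CPM in the scrib wing library and 65.8 CPM in control. It was highest in RasV12 and lowest in the scrib wing library and the late tumour, within a ratio of 1.32. Only the step between the late tumour and scrib BskDN exceeded counting error between neighbours.

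Dsor1 (FBgn0010269, X:9247342-9250037), the MEK gene, had the lowest value of the 7 eye-antennal libraries in the late tumour. It was at 58.0 CPM in RasV12, 48.7 CPM in the early tumour, 42.4 CPM in the late tumour (39.6 to 45.4) and 67.0 CPM in RasV12 scrib BskDN. It was at 58.1 CPM in scrib BskDN, 69.7 CPM in BskDN, 48.8 CPM in the scrib wing library and 61.3 CPM in control (57.8 to 64.9). Both tumours lay below every other eye-antennal library.

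The ERK gene rl (FBgn0003256, 2R:1071462-1125927) was at 107 CPM in RasV12, 98.6 CPM in the early tumour, 82.3 CPM in the late tumour (78.3 to 86.3) and 123 CPM in RasV12 scrib BskDN (118 to 128). It was at 103 CPM in scrib BskDN, 113 CPM in BskDN, 107 CPM in the scrib wing library and 94.8 CPM in control. The late tumour was lowest and RasV12 scrib BskDN highest, and no neighbours between control and BskDN in its order differed beyond counting error.

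The other 7 members had narrower spans than Ras85D. Over the 8 libraries the ratio of the highest to the lowest level was 1.95 for drk, 1.64 for Dsor1, 1.496 for rl, 1.47 for ksr, 1.37 for csw, 1.32 for Raf and 1.29 for Sos, against a median of 1.64 over the 5855 genes with a mean of at least 20 CPM. Without the scrib wing library the span was 1.64 for Dsor1 and 1.58 for drk. The profiles of Sos, csw and ksr were closest to each other, with root mean square differences of 0.10 to 0.11 on the log2 scale. Dsor1 was closest to rl, at 0.15, and all differences that involve Ras85D were 0.74 or more.

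**Figure D4:**
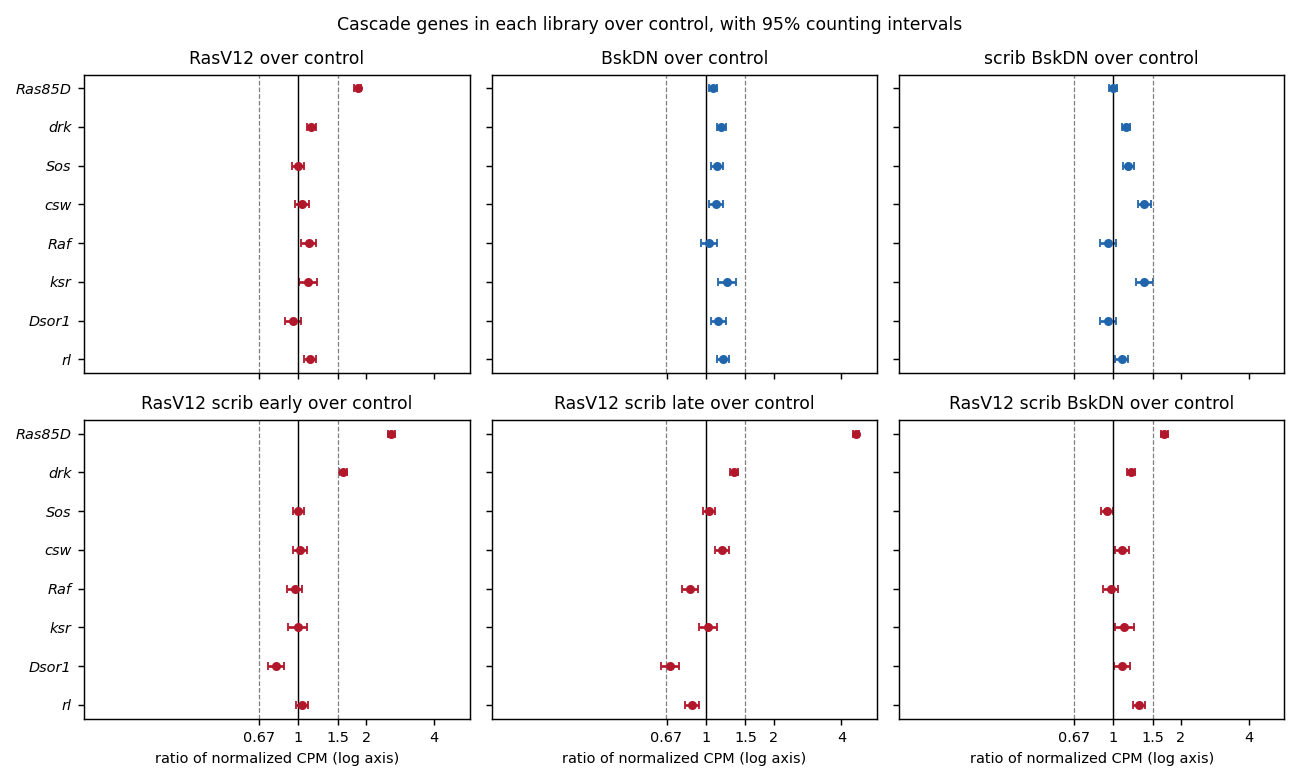
Ratio of normalized CPM of each cascade gene in 6 libraries over control (horizontal log axes, 1 panel per library), with exact 95% counting intervals as bars. Dashed lines mark 1.5-fold in either direction. Ras85D lies beyond the line in the 4 panels with RasV12, drk in the early tumour, and all other points lie between the lines.

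With active Ras alone, the other 7 members lay between 0.946 and 1.14 of their control levels. Calls below mean a difference of 1.5-fold or more in log2 CPM with a prior count of 2, where the higher of the 2 libraries reaches 5 CPM. In RasV12 over control 1 of 8 members was called, Ras85D (1.83-fold, 1.77 to 1.90), against 12.2% of all genes considered. rl was 1.12-fold (1.06 to 1.20), drk 1.14-fold (1.09 to 1.19) and Raf 1.11-fold over control (1.03 to 1.20). Sos (0.997, 0.938 to 1.06), csw (1.04, 0.963 to 1.11) and Dsor1 (0.946, 0.871 to 1.03) had intervals that held 1. Both libraries are labelled 5 days. Counting intervals lay off 1 for 5 of 8 members and for 53.2% of all genes, so an interval off 1 is common at this depth.

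In the early tumour over control 2 of 8 members were called, Ras85D (2.59-fold, 2.50 to 2.68) and drk, against 19.6% of all genes. Dsor1 was lower, at 0.795 of its control level (0.730 to 0.866), while Sos (1.00), csw (1.01), Raf (0.961), ksr (0.992) and rl (1.04) had intervals that held 1. Counting intervals lay off 1 for 3 of 8 members and for 65.8% of all genes. The libraries are labelled 7 and 5 days.

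In the late tumour over control, where 26.9% of all genes were called, Ras85D alone was called among the 8 members (4.66-fold, 4.52 to 4.81). None of the 3 kinases of the chain was called, and each had an interval below 1, as did 37.4% of all genes, with 73.2% off 1 either way. Dsor1 was at 0.693 (0.633 to 0.758), Raf at 0.854 (0.787 to 0.926) and rl at 0.868 of the control level (0.811 to 0.929). Upstream genes were above it, with drk at 1.33-fold (1.28 to 1.39) and csw at 1.18-fold (1.09 to 1.26), and Sos (1.03) and ksr (1.02) had intervals that held 1. The labelled ages were 11 and 5 days, and the eye disc marker sum was 565 CPM in the late tumour and 1043 CPM in control. The part of age and tissue in these values was not tested.

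The late and early tumours share their genotype and are labelled 11 and 7 days. Ras85D was 1.80-fold higher in the late tumour (1.76 to 1.84) and the only one of 8 members called, against 17.2% of all genes. The 4 members drk (0.843, 0.813 to 0.874), Raf (0.888, 0.820 to 0.962), Dsor1 (0.871, 0.795 to 0.955) and rl (0.834, 0.782 to 0.891) were lower in the late tumour. csw was 1.16-fold higher (1.08 to 1.24). Of the considered genes, 31.6% had intervals above 1 and 34.6% below it.

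The early tumour over RasV12 sets scrib[2] beside active Ras, at 7 and 5 days. None of the 8 members was called, against 18.2% of all genes. Ras85D was 1.41-fold (1.37 to 1.45) and drk 1.38-fold higher (1.33 to 1.44) in the early tumour. The kinase and scaffold genes, none of them called, had intervals below 1, as did 32.9% of all genes, with Dsor1 at 0.841 (0.772 to 0.915), Raf at 0.866 (0.803 to 0.933), ksr at 0.896 and rl at 0.925 of the RasV12 level (0.870 to 0.983). Sos (1.00) and csw (0.979) had intervals that held 1.

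The next comparison adds UAS-Bsk[DN], which blocks JNK, to the tumour genotype. In RasV12 scrib BskDN over the early tumour Ras85D was at 0.650 (0.633 to 0.668), the 1 member called, against 19.8% of all genes. drk was at 0.757 of the early tumour level (0.729 to 0.785), while Dsor1 was 1.37-fold (1.27 to 1.49), rl 1.25-fold (1.18 to 1.32) and ksr 1.13-fold higher (1.03 to 1.24). drk, Dsor1, rl and ksr were not called, and 36.4% of all genes had intervals above 1 and 30.9% below it. Raf did not differ beyond counting error (1.01, 0.9397 to 1.096). The labels give 6 and 7 days. This comparison and the one with RasV12 share the early tumour library, so that opposite signs in them are not independent.

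Over control, RasV12 scrib BskDN had 1 of 8 members called, Ras85D (1.68-fold, 1.62 to 1.74), against 13.4% of all genes. The next largest values were rl at 1.30-fold (1.22 to 1.38), drk at 1.20-fold and ksr at 1.12-fold, and Sos was at 0.939 (0.882 to 0.999).

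Active Ras could also be compared within discs that had both scrib[2] and BskDN, at 6 days in both libraries. In RasV12 scrib BskDN over scrib BskDN, Ras85D was 1.69-fold higher (1.63 to 1.75) and was the 1 member called, against 22.6% of all genes. rl was 1.19-fold (1.12 to 1.26) and Dsor1 1.15-fold higher (1.07 to 1.25). Neither was called, and 35.2% of all genes had intervals above 1 and 37.3% below it. The intervals of csw, Sos and ksr lay below 1, with none called, and as scrib BskDN was the highest library of each, these ratios restate its level. They put csw at 0.797 (0.748 to 0.850), Sos at 0.803 (0.758 to 0.851) and ksr at 0.816 of the scrib BskDN level (0.751 to 0.886). RasV12 over control, which shares no library with this pair, had 28.9% of all genes with intervals above 1. Intervals lay above 1 in both pairs for Ras85D, for rl (1.19 here and 1.12 there) and for drk (1.05 and 1.14), but for Dsor1 in this pair alone (1.15 and 0.946). The drk ratio of 1.05 fell below 1 when scaled by library totals alone, and RasV12 scrib BskDN was the highest library of rl. Libraries without RasV12 were above control too, with rl at 1.19-fold in BskDN and 1.09-fold in scrib BskDN. For drk these values were 1.17 and 1.14.

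In BskDN and in scrib BskDN none of the 8 members was called over control. The labels give 11 days for BskDN, 6 days for scrib BskDN and 5 days for control. In BskDN, where 13.4% of all genes were called, 7 of 8 members had intervals above 1, against 34.6% of all genes. The highest were ksr (1.24-fold, 1.13 to 1.36), rl (1.19-fold, 1.12 to 1.27) and drk (1.17-fold, 1.12 to 1.22). The 34.6% includes genes with few counts, whose intervals are wide. Of 4212 genes with mean levels in a range that holds the members, 74.5% had intervals off 1 in either direction. Their share above 1 alone was not taken, so the 7 of 8 has no share at matched levels beside it. Ras85D was 1.07-fold over control in BskDN, or 1.02-fold when scaled by library totals alone. That scaling also lowered Sos from 1.12- to 1.07-fold and Dsor1 from 1.14- to 1.08-fold. In scrib BskDN, where 26.7% were called, ksr (1.37-fold, 1.26 to 1.502) and csw (1.37-fold, 1.28 to 1.47) were highest, Sos was 1.17-fold (1.10 to 1.24), and Ras85D (0.996, 0.958 to 1.04), Raf and Dsor1 had intervals that held 1.

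Past 2-fold, Ras85D was the only member called, in the early and late tumours over control, where 11.3% and 17.9% of all genes were called. No member was called past 2-fold in RasV12 (8.49% of all genes), BskDN (7.95%), scrib BskDN (14.7%) or RasV12 scrib BskDN over control (8.76%). None was in the late over the early tumour (10.6%), the early tumour over RasV12 (10.3%), RasV12 scrib BskDN over the early tumour (11.0%) or RasV12 scrib BskDN over scrib BskDN (10.5%).

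Raf, Dsor1 and csw are X-linked. The RNA lncRNA:roX1, which acts in dosage compensation of the male X, was at 67.6 CPM in RasV12 scrib BskDN, 60.1 CPM in scrib BskDN discs and 120 CPM in BskDN, against 478 to 711 CPM in the 5 libraries without UAS-Bsk[DN]. The median log2 difference over control of 1578 X-linked genes was 0.06, 0.03 and 0.05 in those 3 libraries, beside 0.05, -0.0031 and 0.03 for 7899 autosomal genes. The labels of these 3 put eyflp and UAS-Bsk[DN] on the opposite X chromosomes, a genotype of females, while they give no sex for the other 5. Sex and the transgene therefore cannot be told apart in any comparison of a library with UAS-Bsk[DN] to one without it.

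Other genes of the pathway were read from lists. Of 5 Ras regulators measured, RasGAP1, a GTPase-activating protein gene that turns Ras off, was at 234 CPM in RasV12, 158 CPM in the early tumour, 218 CPM in the late tumour and 198 CPM in RasV12 scrib BskDN, against 158 CPM in scrib BskDN, 139 CPM in BskDN and 108 CPM in control. The early tumour and scrib BskDN had the same level, and the other 3 libraries with RasV12 were above both. It was called over control in RasV12 (2.17-fold, 2.06 to 2.29), the late tumour (2.01-fold) and RasV12 scrib BskDN (1.84-fold, 1.74 to 1.94). The Ras and Rab5 regulator gene spri was called in the late tumour (1.93-fold, 1.83 to 2.05) and scrib BskDN (1.83-fold), and the GTPase-activating protein gene Nf1 in scrib BskDN (1.53-fold). vap and C3G were not called over control in any library.

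Of 14 scaffolds and modifiers measured, 1 was called in RasV12 over control, the kinase gene Src64B (1.53-fold, 1.45 to 1.62), beside 12.2% of all genes. It was also the 1 called in BskDN, which has no RasV12, at 158 CPM against 105 CPM in control. None was called in the late tumour or in RasV12 scrib BskDN, beside 26.9% and 13.4% of all genes. The scaffold gene ave was lower in the early tumour, at 5.76 against 12.6 CPM in control, and in scrib BskDN, at 6.86 CPM. The chaperone gene Hsp83 was higher in scrib BskDN, at 6647 against 3845 CPM in control (1.73-fold, 1.71 to 1.74). The list medians over control lay between -0.0047 and 0.14 on the log2 scale, beside medians over all genes of -0.02 to 0.06.

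None of the 4 other Ras family GTPase genes measured (Ras64B, Rap1, Rala and Rheb) was called in any of the 10 comparisons, beside 12.2 to 26.9% of all genes, a share at which 0 of 4 is not unusual. Rap1, a Ras relative known for cell adhesion, had the largest increase, to 405 CPM in the early tumour against 311 CPM in control, and Rala was at 133 CPM in RasV12 scrib BskDN against 107 CPM in control. Ras64B was at 78.9 CPM in RasV12, 99.8 CPM in the early tumour, 90.3 CPM in the late tumour and 77.4 CPM in RasV12 scrib BskDN, against 96.1 CPM in control.

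Among 13 genes of other MAP kinase cascades, none was called in RasV12 over control, beside 12.2% of all genes, and 1, bsk itself, in RasV12 scrib BskDN over control, beside 13.4%. In the early tumour over control 2 of the 13 were called higher and 1 lower, beside 19.6% of all genes called in either direction. There msn, a kinase upstream of JNK, was 1.65-fold (1.60 to 1.70) and p38a 1.77-fold over control (1.54 to 2.04), and the Nemo-like kinase gene nmo was at 0.542. In the late tumour 2 were called higher and 0 lower, beside 26.9% of all genes. There msn was 1.69-fold and the p38 pathway kinase gene Mekk1 1.89-fold over control (1.79 to 1.99).

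Of 6 receptor tyrosine kinase genes measured, Egfr, the main receptor upstream of this cascade in discs, was at 285 CPM in RasV12, 261 CPM in the early tumour, 185 CPM in the late tumour and 259 CPM in RasV12 scrib BskDN, against 277 CPM in control. Its highest level was 411 CPM, in BskDN. Egfr was called lower in the late tumour (0.665, 0.638 to 0.694). The R7 photoreceptor receptor gene sev was at 152 CPM in control and higher in BskDN, at 261 CPM. It was called lower in 3 libraries, at 56.0 CPM in the early tumour, 45.6 CPM in the late tumour and 78.1 CPM in RasV12 scrib BskDN. The eye disc marker gl, a photoreceptor transcription factor gene, was at 55.2, 29.8 and 106 CPM in these 3 libraries, against 162 CPM in control, and its part in the sev levels was not tested. Alk was at 81.3 CPM in the late tumour and 29.9 CPM in scrib BskDN, against 7.20 CPM in control. The 6 neuron markers summed to 295 CPM in the late tumour and 292 CPM in scrib BskDN, against 42.3 CPM in control, and their part in the Alk levels was not tested. Pvr, the PDGF and VEGF receptor gene also used by hemocytes, was at 75.3 CPM in RasV12 and 309 CPM in BskDN, against 163 CPM in control. The embryonic receptor gene tor was at 2.33 CPM in RasV12 and 0.371 CPM in BskDN, against 7.73 CPM in control. Over control, 2 of the 6 were called higher and 2 lower in RasV12, beside 12.2% of all genes called in either direction. In the early tumour 0 were higher and 2 lower (19.6% of all genes), and in the late tumour 1 was higher and 3 lower (26.9%). RasV12 scrib BskDN had 1 higher and 2 lower (13.4%), scrib BskDN 1 and 0 (26.7%), and BskDN 2 and 2 (13.4%).

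**Figure D5:**
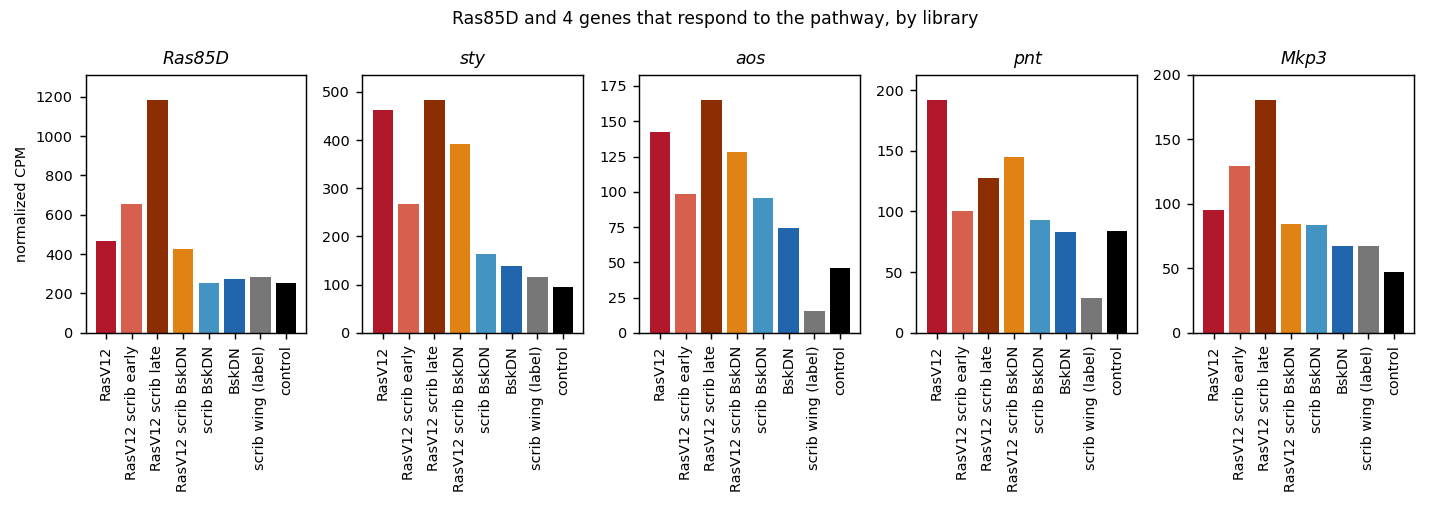
Normalized CPM (bars, from 0) of Ras85D and of sty, aos, pnt and Mkp3 in 8 libraries. The late tumour has the highest Ras85D, sty, aos and Mkp3, while RasV12, with less Ras85D than the early tumour, has more sty, aos and pnt.

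Of 4 genes that respond to the pathway, Mkp3 followed the order of Ras85D over the 4 libraries with RasV12, and sty, aos and pnt did not. However, Mkp3 was at 84.3 CPM in RasV12 scrib BskDN and at nearly the same level, 83.7 CPM, in scrib BskDN, which lacks RasV12. Over all 8 libraries the profile of sty was 120th closest to that of Ras85D among the 5540 candidates, with a root mean square difference of 0.52, while pnt (0.78) and aos (0.84) were near the median of 0.79. The feedback inhibitor gene sty was at 463 CPM in RasV12, 267 CPM in the early tumour, 482 CPM in the late tumour and 392 CPM in RasV12 scrib BskDN, against 163 CPM in scrib BskDN, 140 CPM in BskDN, 116 CPM in the scrib wing library and 95.7 CPM in control. With 1.41 times the Ras85D of RasV12, the early tumour had 0.578 of its sty (0.559 to 0.597). It also had 0.523 of its pnt, the gene of the Ets factor that ERK activates, and 1.35 times its Mkp3, at 129 against 95.6 CPM. The secreted inhibitor gene aos was at 98.4 CPM in the early tumour, against 143 CPM in RasV12. The 6 salivary gland markers summed to 9.86 CPM in the early tumour, against 1392 CPM in RasV12. The 6 eye disc markers summed to 669 CPM in the early tumour, against 823 CPM in RasV12. Their part in this was not tested. In this pair, 2 of the 12 response genes were called higher and 6 lower, beside 7.55% and 10.6% of all genes. Over control, 9 of the 12 were called higher and 0 lower in RasV12, beside 12.2% of all genes in either direction. The early tumour had 5 higher and 1 lower (19.6%), the late tumour 9 and 1 (26.9%) and RasV12 scrib BskDN 7 and 0 (13.4%). Without RasV12, scrib BskDN had 6 higher and 1 lower (26.7%), and BskDN 4 and 0 (13.4%). RasV12 scrib BskDN had the least Ras85D of the 4 libraries with RasV12, at 426 CPM, and more sty, aos and pnt than the early tumour, with pnt at 145 against 100.1 CPM. Without RasV12, sty was 1.70-fold (1.61 to 1.81) and Mkp3 1.78-fold over control in scrib BskDN (1.64 to 1.94), while the Ras85D ratio to control there was 0.996, or 1.04 when scaled by library totals alone. In the same library aos was at 95.4 CPM, against 46.1 CPM in control and 98.4 CPM in the early tumour. There pnt was at 93.1 CPM, against 84.1 CPM in control.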

How the data were processed

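The deposited table held raw read counts per gene for 8 libraries, 1 per group. Per the submitters' processing notes the authors used TopHat2 and HTSeq, with versions, build, annotation and strand setting not given in the sources used here. Its 5 tally rows were left out. They held 3.41 to 7.33% of reads in no gene, 1.46 to 1.83% in more than 1 gene and 14.8 to 27.8% aligned to several places. Of 15348 identifiers, 95.4% had a symbol.

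Counts were scaled with edgeR 4.0.16 (TMM) in R 4.3.3, and log2 CPM took a prior count of 2. Levels have exact Poisson intervals and folds exact conditional binomial (Clopper-Pearson) intervals, at 95%. These cover counting error only, because the groups had no replicates. No molecular identifiers separate molecules from their PCR copies, so the intervals may be too narrow even for counting error. At this depth 3 counts were worth 0.142 to 0.181 CPM. Calls needed a 1.5-fold difference and 5 CPM in the higher of the 2 libraries. RPKM used the union of exons in BDGP6 Ensembl release 115, whose coordinates are printed. The code of the calling step and the intervals was run on simulated Poisson counts with no added spread between libraries. All planted changes were well past 1.5-fold, so the rate of false calls between real libraries was not tested.

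The members and lists were chosen with earlier results of these data known. Of 120 list entries 107 matched. Named genes were the members, the genes beside or overlapping them, the 5 closest profiles to Ras85D, 4 response genes, and per list the 2 largest differences in each direction. Nf1, Src64B, Egfr, msn, Mekk1, vap, C3G, Rheb and gl were named after their values were seen. Alternatives were DESeq2 1.42.0 size factors, library totals, other TMM sets, 2-fold calls, a prior of 0.5, no filter, no minimum in the higher library, and longest-transcript lengths.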

Additional observations from a re-analysis of the deposited data

Results flagged for a closer look

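The scaffold gene ksr differed in direction between the 2 pairs of libraries that differ by active Ras. It was 1.11-fold over control in RasV12 (1.01 to 1.22), and at 0.816 of the scrib BskDN level in RasV12 scrib BskDN (0.751 to 0.886). The difference between these 2 effects was not tested, as each group had 1 library, and the scrib BskDN library had the highest ksr and the highest Hcs, which shares 15.2% of the ksr exon length.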

How the results depend on the processing

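No paired analysis was possible because each group had 1 library. Leaving out a replicate could not be done for the same reason. Of 80 counts of members called under another setting, 74 were within 1.5 times the main count. All 6 others came from calling past 2-fold, which left 0 members in RasV12, in RasV12 scrib BskDN over control, over the early tumour and over scrib BskDN, and in the late over the early tumour, and 1, Ras85D, in the early tumour over control. At 2-fold 8.49 to 11.3% of all genes were called in these comparisons. Ras85D folds moved beyond their counting interval in 7 of 40 cases. The fold over control in BskDN, 1.07 as reported, was 1.02 with library totals. Those over control in scrib BskDN, 0.996 as reported, were 1.04 with library totals and 0.941 with scaling over the 7 eye-antennal libraries, so its direction there is not set. In RasV12 scrib BskDN over the early tumour the fold was 0.630 with DESeq2 size factors and 0.625 with library totals, over control it was 1.62 with DESeq2 size factors, and over scrib BskDN it was 1.57 with library totals. Of 280 folds of the other members, 1 whose interval had lain off 1 turned round: drk in RasV12 scrib BskDN over scrib BskDN, 1.05 as reported, was 0.975 with library totals. Some folds of Raf, Sos and ksr whose intervals held 1 also crossed 1. Scaling moved any member's fold by -6.88 to 4.81%, so values within about that distance of 1 depend on it. With the longest transcript in place of the exon union, RPKM moved beyond counting error for 3 of 8 members. With 1 library per group, the spread between replicates was not measured.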
